A study of Homo sapiens with 6 samples.

Results

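Matrix metalloproteinases (MMPs) are zinc proteases that cut collagens and other components of the extracellular matrix, and tissue inhibitors of metalloproteinases (TIMPs) are the secreted proteins that block them. The expression of 10 of these genes, MMP1, MMP7, MMP9, MMP10, MMP14, MMP15, MMP24, TIMP1, TIMP2 and TIMP3, was examined in HCC827 cells, taken by symbol from a table of 28395 genes. HCC827, an established line of human lung adenocarcinoma, depends on an EGFR that an internal deletion keeps active. Erlotinib is an inhibitor of the EGFR kinase. All 6 RNA-seq libraries came from this line, 3 from cells given the vehicle DMSO and 3 from cells given 1 μM erlotinib, each for 24 h. Nothing in the labels says that the libraries of a group came from separate cultures, so p-values measure only the spread between these libraries, which may be technical.

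MMPs are made as inactive precursors, and a short propeptide has to be removed before they can cut. Most, such as MMP1, MMP7, MMP9 and MMP10, are secreted, whereas MMP14, MMP15 and MMP24 are membrane-type enzymes held at the cell surface, whose propeptide is removed by the convertase furin on the way there. TIMPs bind the active enzyme in a tight complex, and TIMP2 and TIMP3 inhibit the membrane-type enzymes well while TIMP1 does so poorly. In epithelial tumour cells the secreted enzymes are textbook targets of growth factor signalling, which acts on AP-1 and ETS sites in their promoters.

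The promoter sequences of these genes were compared first, since the genes differed in response to the drug. RefSeq promoters (GRCh38.p14, 250 bases before to 50 after the start of the gene) were found for 7 of the 10 genes, without MMP1, MMP9 and TIMP2. They were searched on either strand for an AP-1 motif (TGANTCA), an ETS motif (AGGAAG), the motif of the YAP/TAZ partner TEAD (GGAATG) and a TATA box (TATAAA), none of which contains another, though ETS and TEAD matches can share bases. The 250 bases upstream of the start are shown for MMP7, the gene that rose most, for MMP10 of the same gene cluster, in which no read was found, and for MMP15 and MMP24, membrane-type genes that rose. Capitals mark the motifs, and each sequence is written 5′ to 3′ on the strand of its gene.
MMP7, chr11:102530748-102530997, minus strand: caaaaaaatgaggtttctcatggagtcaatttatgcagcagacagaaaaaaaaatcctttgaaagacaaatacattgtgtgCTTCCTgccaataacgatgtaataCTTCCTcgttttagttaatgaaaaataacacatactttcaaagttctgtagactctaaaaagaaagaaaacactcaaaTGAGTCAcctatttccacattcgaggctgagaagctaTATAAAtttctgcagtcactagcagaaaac
MMP10, chr11:102780629-102780878, minus strand: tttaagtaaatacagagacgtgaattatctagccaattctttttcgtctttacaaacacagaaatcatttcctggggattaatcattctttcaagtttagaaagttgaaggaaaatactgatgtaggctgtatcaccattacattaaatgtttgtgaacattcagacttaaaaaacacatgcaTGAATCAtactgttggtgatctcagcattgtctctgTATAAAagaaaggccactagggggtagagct
MMP15, chr16:58025504-58025753, plus strand: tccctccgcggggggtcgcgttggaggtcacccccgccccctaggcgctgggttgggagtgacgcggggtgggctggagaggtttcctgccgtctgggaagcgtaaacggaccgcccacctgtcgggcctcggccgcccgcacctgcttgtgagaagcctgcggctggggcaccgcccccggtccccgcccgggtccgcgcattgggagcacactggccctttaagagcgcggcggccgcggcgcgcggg
MMP24, chr20:35226440-35226689, plus strand: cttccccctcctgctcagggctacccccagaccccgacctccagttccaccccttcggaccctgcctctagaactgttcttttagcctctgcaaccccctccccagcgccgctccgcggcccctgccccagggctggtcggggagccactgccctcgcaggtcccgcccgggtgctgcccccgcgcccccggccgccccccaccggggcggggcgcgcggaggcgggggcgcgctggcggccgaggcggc
MMP7 and MMP10 each held an AP-1 motif whose first base lay at position -67 from the start, and a TATA box at -30 in MMP7 and -31 in MMP10. MMP7 held in addition 2 ETS motifs, at -169 and -145, in the reverse orientation. MMP15 and MMP24 held none of the 4 motifs, and their promoters were rich in G and C (75.3% and 80.0%, against 35.7% in MMP7 and 36.3% in MMP10). Among 35116 promoters of the same length, 7.71% held the AP-1 motif, 33.6% the ETS motif, 14.0% the TEAD motif and 11.5% the TATA box. TIMP1 held an ETS motif at -87, and MMP14 and TIMP3 held none of the 4. A match of letters is a description and shows no binding.

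Expression is given as signal, the reads of a gene divided by the size factor of its library. The libraries held 20858083, 24641819 and 21172884 reads on genes with DMSO and 21944007, 20760204 and 21678395 with erlotinib, given here and below in the order of the deposited columns. The groups were compared with limma on log2(signal + 1). All 14215 genes whose signal averaged 10 or more were tested, and p-values were adjusted over all of them (Benjamini-Hochberg). Log2 fold changes are on that scale, and those of genes with few reads depend on the number added. Changes written as a multiple, such as 17.9-fold for MMP7, are ratios of the group means of signal. For TIMP4, for example, the log2 fold change was -1.86 with 0.1 added and -1.26 with 10 added.

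Erlotinib was accompanied by higher expression of MMP7, MMP15 and MMP24 and of the inhibitor TIMP2, while MMP9, MMP14 and TIMP1 did not pass the test and MMP1, MMP10 and TIMP3 had too few reads to be tested. In bulk RNA, a change in the number of cells of a type and a change in RNA per cell cannot be told apart. Of the 10 genes, 7 were tested, and each of these had a mean signal over 10 in both groups. At an adjusted p-value under 0.05, 4 were higher with erlotinib and 0 were lower (limma). Of all tested genes, 70.7% passed in either direction, 35.3% higher and 35.4% lower, so that change in itself was common in these cells. No gene of the 10 was lower at an unadjusted p under 0.05 either (0 of 7), and edgeR, DESeq2 and limma-voom also gave 4 higher and 0 lower. The DMSO and erlotinib libraries did not overlap for these 4 genes, as was the case for 73.6% of all tested genes (36.7% with erlotinib higher and 36.9% with it lower).

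**Figure D1:**
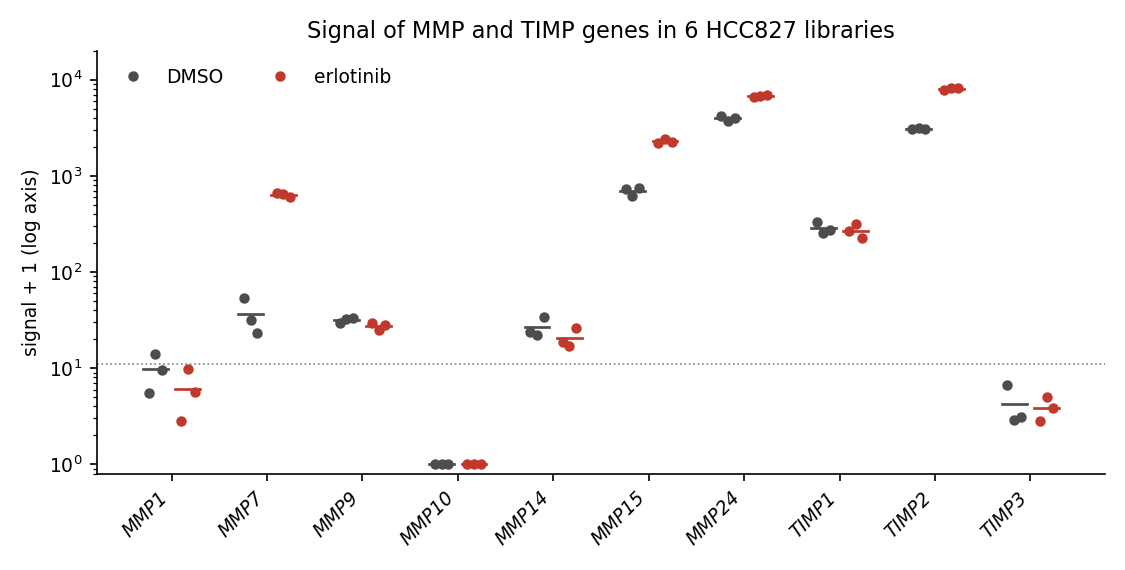
Signal + 1 of the 10 genes in each library on a log axis (grey points, DMSO; red points, erlotinib; bars, group means; dotted line, a signal of 10). The red points lie above all grey points for MMP7, MMP15, MMP24 and TIMP2, and the groups overlap or are at 0 for the other genes.

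Among the secreted enzymes, MMP7 (matrilysin), a small protease that epithelial cells secrete and that lacks the hemopexin domain of most MMPs, changed most. In MMP7 (Entrez gene 4316, on chromosome 11 of GRCh38 from 102520508 to 102530747) the signal was 53.3, 30.6 and 22.5 in the DMSO libraries and 660, 647 and 597 in the erlotinib libraries. The DMSO libraries, which held 47, 33 and 21 reads, differed among themselves by more than the erlotinib libraries did in proportion, and the lowest erlotinib value was far above the highest DMSO value. The mean rose from 35.5 ± 16.0 to 635 ± 33.2 (SD, n = 3 each), which is 17.9-fold. The log2 fold change was 4.21 ± 0.23 (SE; limma, adjusted p = 9.07e-13).

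MMP9 (gelatinase B), a secreted protease that cuts denatured collagen and basement membrane collagen, had low signal in all libraries. MMP9 (Entrez gene 4318, chromosome 20, 46008908 to 46016561) had a signal of 28.4, 31.6 and 32.1 with DMSO and of 28.6, 23.8 and 27.1 with erlotinib, from 24 to 34 reads per library. The groups overlapped. Its log2 fold change of -0.21 had a 95% confidence interval from -0.92 to 0.51 (adjusted p = 0.603, limma), so that neither a modest fall nor a modest rise could be detected at this depth.

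MMP1 (interstitial collagenase), which cuts fibrillar collagen, had a signal of 4.54, 13.0 and 8.56 with DMSO and of 1.85, 8.91 and 4.68 with erlotinib, from 2 to 14 reads per library. The groups overlapped, and the gene (Entrez gene 4312, chromosome 11, 102789919 to 102798160) lay under the limit for testing. MMP10 (stromelysin-2; Entrez gene 4319, chromosome 11, 102770502 to 102780628), which cuts a broad range of matrix proteins, had 0 reads in all 6 libraries. A count of 0 allows up to 3 reads, which is 0.122 to 0.145 CPM (reads scaled to the library total) in these libraries and covers counting error only.

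MMP7, MMP10 and MMP1 belong to a cluster of 9 MMP genes on chromosome 11, in which the lower coordinates of MMP7 and MMP13, at its ends, lie 422.5 kb apart. Signal rose at the ends of the cluster and was nearly absent between them. MMP13, a collagenase known from cartilage and invasive carcinoma, had a signal of 7.94, 21.4 and 21.4 with DMSO and of 189, 176 and 191 with erlotinib. Its mean rose from 16.9 ± 7.76 to 185 ± 8.05 (SD, n = 3 each), and the log2 fold change was 3.50 ± 0.32 (SE; limma, adjusted p = 4.24e-09). Of the genes between them, MMP27, MMP10, MMP3 and MMP12 had 0 reads in all libraries, MMP8 and MMP20 had at most 2 and 3 reads in any library, and MMP1 had at most 14. The AP-1 motif was found in the promoters of MMP7, MMP10 and MMP20, which were 3 of the 15 MMP and TIMP promoters in the table. Promoters of MMP1, MMP3, MMP12 and MMP13 were not searched. The letters of the motif were TGAGTCA in MMP7, which rose, and TGAATCA in MMP10 and MMP20, which had next to no reads. Whether this difference in letters bears on expression was not tested.

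**Figure D2:**
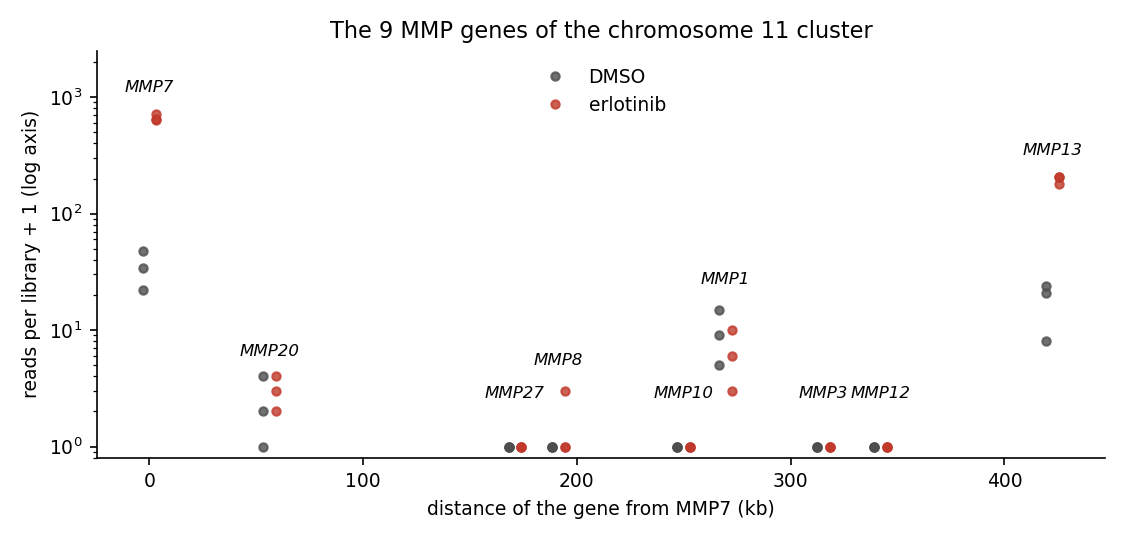
Reads per library + 1 on a log axis for the 9 MMP genes of the chromosome 11 cluster, placed by their distance from MMP7 in kb (grey points, DMSO; red points, erlotinib). MMP7 and MMP13 at the ends are higher in all 3 erlotinib libraries, and the 7 genes between them hold at most 14 reads in any library.

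The membrane-type enzymes held most of the MMP signal of these cells. MMP24, a membrane-type enzyme known mainly from the nervous system, had a signal of 4234, 3726 and 3974 with DMSO and of 6604, 6792 and 6989 with erlotinib. All erlotinib libraries were higher than all DMSO libraries, and the spread within each group was small. MMP24 lies on chromosome 20 from 35226690 to 35276998 (Entrez gene 10893). Its mean rose from 3978 ± 254 to 6795 ± 193 (SD, n = 3 each), which is 1.71-fold. The log2 fold change was 0.77 ± 0.07 (SE; limma, adjusted p = 1.53e-09), the smallest among the 4 genes that rose. The gene overlaps MMP24OS on the other strand, and the strand that was counted is not given in the sources used here. It also overlaps MMP24-AS1-EDEM2, which was not among the counted genes, so its part in the reads could not be examined. MMP24OS had a mean signal of 110, against 5386 for MMP24, and was also higher with erlotinib (log2 fold change 1.04, adjusted p = 0.00146, limma).

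MMP15, a membrane-type enzyme of epithelial cells and a close relative of MMP14, had a signal of 733, 619 and 748 with DMSO and of 2206, 2421 and 2223 with erlotinib. The groups were well separated. MMP15 lies on chromosome 16 from 58025754 to 58046901 (Entrez gene 4324). Its mean rose from 700.1 ± 70.3 to 2284 ± 120 (SD, n = 3 each), which is 3.26-fold, and the log2 fold change was 1.71 ± 0.09 (SE; limma, adjusted p = 4.07e-13). MMP14, the membrane-type collagenase best known for tumour invasion and for activating the precursor of MMP2, was low. MMP14 (Entrez gene 4323, chromosome 14, 22836585 to 22847758) had a signal of 22.7, 21.4 and 33.2 with DMSO and of 17.5, 15.8 and 25.3 with erlotinib, from 16 to 31 reads per library. The groups overlapped, and the log2 fold change of -0.38 had a 95% confidence interval from -1.22 to 0.46 (adjusted p = 0.409, limma). MMP2, the gelatinase that MMP14 activates together with TIMP2, had a mean signal of 1.07 with DMSO and 3.76 with erlotinib and was not tested.

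Of the inhibitors, TIMP2 was the most abundant and the one that rose. TIMP2 (Entrez gene 7077, chromosome 17, 78852977 to 78925387) had a signal of 3079, 3115 and 3102 with DMSO and of 7720, 8138 and 8249 with erlotinib. The DMSO libraries lay very close together, and the groups did not overlap. Its mean rose from 3098 ± 18.2 to 8035 ± 279 (SD, n = 3 each), which is 2.59-fold, and the log2 fold change was 1.37 ± 0.06 (SE; limma, adjusted p = 6.48e-14). CEP295NL, which lies within TIMP2 on the same strand, had a mean signal of only 11.2.

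TIMP1, a secreted inhibitor of most soluble MMPs, had a signal of 334, 252 and 271 with DMSO and of 264, 313 and 227 with erlotinib. The groups overlapped widely. The mean of TIMP1 (Entrez gene 7076, chromosome X, 47582436 to 47586789) was 285 ± 42.8 with DMSO and 268 ± 43.3 with erlotinib (SD, n = 3 each), and the log2 fold change of -0.09 had a 95% confidence interval from -0.40 to 0.22 (adjusted p = 0.586, limma). Scaled to the total count of each library, its direction turned, to 0.09. TIMP3 (Entrez gene 7078, chromosome 22, 32801705 to 32863041), the inhibitor that binds to the matrix and also blocks ADAM17, had a signal of 5.67, 1.86 and 2.14 with DMSO and of 1.85, 3.96 and 2.81 with erlotinib. It had 2 to 5 reads per library and was not tested.

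The 18 other genes of these families (17 MMPs and TIMP4) mostly had few reads or none. In 7 of them there were 0 reads in all libraries, among them MMP11 and MMP28, whose reads could be lost to copies on alternate contigs, and 3 had enough signal to test, MMP13, MMP25 and TIMP4. MMP25, a membrane-type enzyme known from leukocytes, had a signal of 64.7, 32.5 and 57.8 with DMSO and of 156, 163 and 142 with erlotinib, and its log2 fold change was 1.61 ± 0.24 (SE; limma, adjusted p = 5.86e-06). It overlaps MMP25-AS1 on the other strand, whose signal averaged 82.0, near the 103 of MMP25, and which also rose (log2 fold change 1.67, adjusted p = 1.24e-05, limma). Without strand, reads from sequence that MMP25 and MMP25-AS1 share cannot be told apart, and how much of their exons is shared was not examined.

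TIMP4 was the gene of these families that fell. Its signal was 55.6, 50.1 and 38.5 with DMSO and 16.6, 23.8 and 5.62 with erlotinib, without overlap between the groups. The log2 fold change was -1.77 ± 0.45 (SE; limma, adjusted p = 0.00145), and -1.22 without the erlotinib library that was lowest. Of the 28 genes of both families, 10 were tested, of which 6 were higher and 1 lower, beside 35.3% higher and 35.4% lower of all tested genes.

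**Figure D3:**
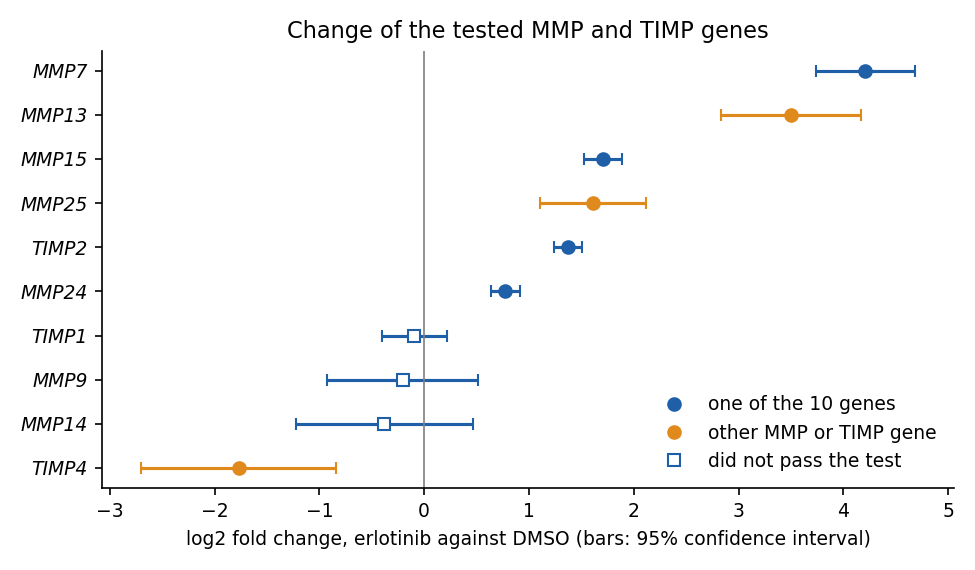
Log2 fold change of the 10 tested MMP and TIMP genes, erlotinib against DMSO, with 95% confidence intervals (blue, the genes described first; orange, other family genes; open squares, adjusted p of 0.05 or more in limma). The changes run from -1.77 for TIMP4 to 4.21 for MMP7, and the intervals of TIMP1, MMP9 and MMP14 include 0.

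To compare genes with one another, reads were divided by the exonic length and scaled to one common total per library, as in TPM. Among the 10 genes with DMSO, the level per length was highest for MMP24 (176 ± 8.49 TPM), followed by TIMP2 (96.8 ± 2.27), TIMP1 (38.2 ± 5.02) and MMP15 (32.1 ± 3.03; SD, n = 3 each). TIMP1 lay above MMP15 in each DMSO library (43.8 against 32.9, 34.1 against 28.7 and 36.6 against 34.6 TPM), though the ranges of these genes overlapped. MMP7 (2.95 ± 1.27 TPM), MMP9 (2.55 ± 0.21) and MMP14 (1.08 ± 0.28) followed, and MMP7 and MMP9 differed by less than the spread of MMP7. With erlotinib, MMP24 (352 ± 10.5 TPM) remained above TIMP2 (293 ± 9.97), MMP15 (122 ± 5.64) lay above MMP7 (62.0 ± 3.10), and MMP7 above TIMP1 (42.0 ± 6.53; SD, n = 3 each). On the TPM scale the median log2 ratio was 0.23 over the 13778 tested genes with a length and a value in both groups, against 0.0048 for the same genes on the signal scale without a pseudocount, so ratios between conditions read higher in TPM.

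The summed level of the 7 MMP genes was 215 ± 11.3 TPM with DMSO and 540 ± 8.86 TPM with erlotinib, and that of the 3 TIMP genes was 135 ± 2.86 and 336 ± 10.1 TPM (SD, n = 3 each). The ratio of TIMP to MMP level does not depend on how a library is scaled. Like the order of the genes above, it does depend on the exonic lengths used, which covered all annotated exons of a gene. It was 0.616, 0.654 and 0.614 in the DMSO libraries and 0.612, 0.631 and 0.619 in the erlotinib libraries, and these ranges overlapped. Over all 28 genes of both families it was 0.644, 0.683 and 0.631 with DMSO and 0.592, 0.613 and 0.596 with erlotinib, lower in each erlotinib library than in any DMSO library. The share of MMP24 in the summed MMP level was 81.8% ± 0.587 with DMSO and 65.1% ± 1.28 with erlotinib, and the share of TIMP2 in the summed TIMP level was 71.7% ± 3.15 with DMSO and 87.5% ± 1.83 with erlotinib (SD, n = 3 each). These sums are of RNA and say nothing of enzyme activity, which depends on the removal of the propeptide. No test was run on them, since the genes were chosen with results known.

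**Figure D4:**
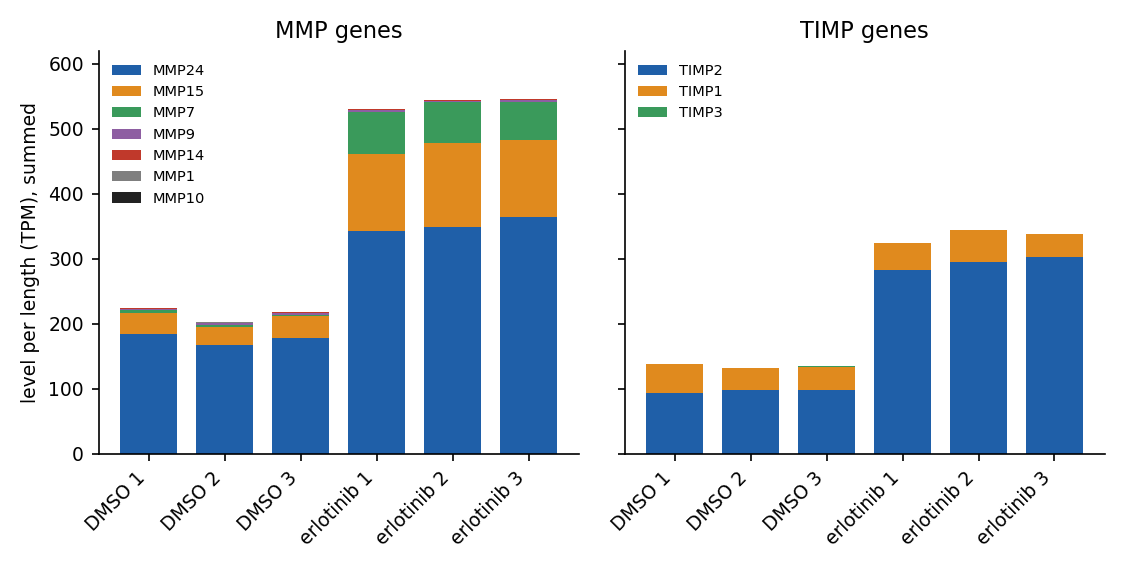
Level per length (TPM) in each library, stacked by gene, for the 7 MMP genes (left) and the 3 TIMP genes (right). MMP24 and TIMP2 make up most of each bar, and bars are higher in all 3 erlotinib libraries on either side.

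Proteins that activate, inhibit or hold MMPs were listed next. Of 20 such genes, 17 were tested, of which 8 were higher, 4 lower and 5 neither (limma). These are 47.1% higher and 23.5% lower, against 35.3% and 35.4% of all tested genes. Their median change was 0.52 on the log2 scale, against 0.02 over all tested genes. LRP1, a receptor that takes up MMPs and their complexes with TIMPs, had a signal of 115, 115 and 70.6 with DMSO and of 560, 540 and 645 with erlotinib (log2 fold change 2.56, adjusted p = 3.09e-11, limma). LCN2, a lipocalin that binds MMP9 and protects it from breakdown, rose from 990 ± 110 to 3343 ± 216 (SD, n = 3 each; log2 fold change 1.76). HPX, the blood protein hemopexin, had a signal of 0, 7.43 and 1.07 with DMSO and of 34.1, 16.8 and 16.8 with erlotinib (log2 fold change 3.11 ± 0.80, SE; limma, adjusted p = 0.00171). Its size rested on few reads, with a log2 fold change of 2.42 without the first DMSO library and 3.96 without the second. With a pseudocount of 0.1 it was 4.48, and with a pseudocount of 10 it was 1.35. HPX was not tested without the first erlotinib library or with at least 10 reads required in every library. FURIN, which cuts the propeptide of membrane-type MMPs, rose from 1319 ± 156 to 2295 ± 58.1 (SD, n = 3 each; log2 fold change 0.80, adjusted p = 3.25e-08, limma).

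The largest falls of this list were those of CAV1, the coat protein of caveolae, where MMP14 is taken up (log2 fold change -1.31), PLAUR, the receptor that focuses plasminogen activation on the cell surface (-0.76), and CD44, a hyaluronan receptor that holds MMP7 and MMP9 at the cell surface (-0.33). All passed the test in limma, with adjusted p-values up to 0.000119 (CD44). RECK, a membrane-bound MMP inhibitor, and BSG (basigin), an inducer of MMPs in neighbouring cells, had log2 fold changes of 0.42 and -0.03 and did not pass the test (adjusted p = 0.0965 and 0.718, limma).

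TIMP2 and TIMP3 also inhibit proteases of the related ADAM and ADAMTS families, so these were listed as well. Of 28 such genes, 15 were tested, of which 6 were higher (40.0%), 3 lower (20.0%) and 6 neither, against 35.3% higher and 35.4% lower of all tested genes. Their median change was 0.15 on the log2 scale, against 0.02 over all tested genes. ADAMTS13, the protease of von Willebrand factor, rose from 57.0 ± 15.5 to 399 ± 30.6 and ADAM28 from 53.6 ± 13.1 to 375 ± 9.02 (SD, n = 3 each), and ADAMTS8 had a log2 fold change of 1.83. The largest falls were those of ADAMTS1 (log2 fold change -1.56), ADAM12 (-1.08) and ADAMTS6 (-0.81). In limma, none of these 6 had an adjusted p-value above 0.00106. ADAM10 and ADAM17, which shed ligands of EGFR from the cell surface, had log2 fold changes of 0.14 and 0.15 and did not pass the test (adjusted p = 0.0939 and 0.0707, limma).

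The transcription factors that act on AP-1 and ETS sites were listed as textbook regulators of MMP genes. Of the 15 promoters searched, 3 (MMP7, TIMP1 and TIMP4) held the ETS motif, against 33.6% of all promoters. All 14 were tested, and 6 were higher and 8 lower with erlotinib (limma), with a median change of -0.63 on the log2 scale (42.9% higher and 57.1% lower, against 35.3% and 35.4% of all tested genes, whose median was 0.02). The 6 listed ETS genes were lower, ETV1 (log2 fold change -5.04), ETV5 (-4.38) and ETV4 (-3.67) of the PEA3 group most, followed by ETS1 (-1.39), ELK3 (-0.85) and ETS2 (-0.40). ETV5 had a signal of 1327 ± 30.0 with DMSO and 67.6 ± 28.9 with erlotinib, and ETV4 had 730.3 ± 48.3 and 56.8 ± 7.16 (SD, n = 3 each). The ETS family has more members than these, and ELF3, an epithelial ETS factor held in the list of epithelial markers, was higher, with a signal of 4954 ± 176 with DMSO and 16087 ± 216 with erlotinib (SD, n = 3 each; log2 fold change 1.70, limma adjusted p = 1.53e-15). Within AP-1 the subunits moved apart. FOSL1 (log2 fold change -4.15) and FOS (-1.23) were lower, while JUND (0.93), JUNB (0.86), FOSL2 (0.77) and JUN (0.34) were higher, as were FOSB (0.94), with a mean signal of only 34.1 in DMSO, and the related gene ATF3 (1.07). In limma the adjusted p-values reached 0.00105 at most, except that of FOSB (0.0248). FOSB did not pass without the second DMSO library (log2 fold change 0.49, adjusted p = 0.158), without the second erlotinib library (0.78, adjusted p = 0.104) or with no filter on low values (adjusted p = 0.056), which left 5 of the 14 genes higher in each case. JUN (0.34) and FOSL2 (0.77) had the highest signals among the AP-1 genes with erlotinib, with means of 14721 and 14901. Signal is not divided by length, so this is an order of reads and not of transcripts. Whether the changes of these factors and that of MMP7 are linked was not tested.

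**Figure D5:**
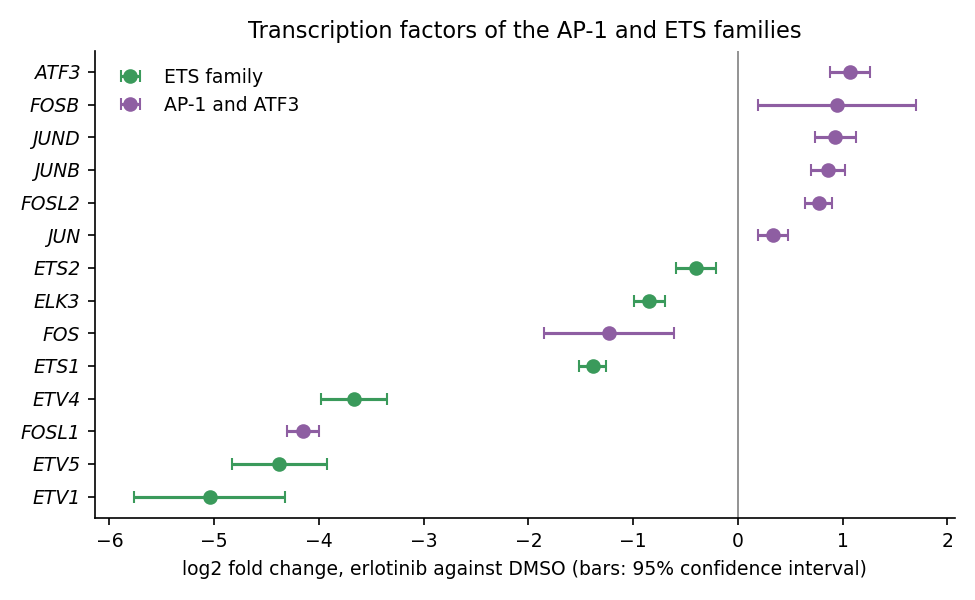
Log2 fold change of 14 transcription factor genes, erlotinib against DMSO, with 95% confidence intervals (green, ETS family; purple, AP-1 subunits and ATF3). The 6 ETS genes, FOSL1 and FOS lie below 0, between -5.04 and -0.40, and the 6 others lie above it.

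Since MMPs and TIMPs are also made by stromal and blood cells, markers of such cells were examined. The 8 epithelial markers were abundant, with a summed signal between 272961 and 306865 in the DMSO libraries and between 229573 and 235147 in the erlotinib libraries, led by KRT7. The keratins KRT7, KRT8, KRT18 and KRT19 were lower, CLDN4 (log2 fold change 0.93) and ELF3 (1.70) were higher, and CDH1 and EPCAM did not pass the test, so 2 were higher and 4 lower (limma). Of 8 fibroblast markers, FAP and THY1 had 0 reads in all libraries and 5 in all had at most 3 reads in any library. The summed fibroblast signal was 73.7, 75.2 and 109 with DMSO and 260, 223 and 215 with erlotinib, nearly all of it from COL1A1 (77.7 and 216), which was higher (log2 fold change 1.47, limma adjusted p = 6.78e-07).

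Of 8 leukocyte and macrophage markers, MS4A1 had 0 reads, PTPRC had a mean signal of 1.78 with DMSO and 4.75 with erlotinib, and nearly all of the summed signal (2910, 2919 and 3294 with DMSO; 3330, 3667 and 3569 with erlotinib) came from CD68, a lysosomal protein that epithelial cells also make. CD68 was higher (log2 fold change 0.23, limma adjusted p = 0.00762), though not past the threshold without the second erlotinib library (adjusted p = 0.0514). CSF1R, the next in level, had a mean signal of 127 with DMSO and 94.3 with erlotinib and did not pass the test. The 6 endothelial markers summed to 34.0, 15.8 and 24.6 with DMSO and to 58.1, 46.5 and 48.7 with erlotinib, and CLDN5 had 0 reads. VWF had a mean signal of 3.94 with DMSO and 27.4 with erlotinib and was higher (log2 fold change 2.75, limma adjusted p = 0.000662). PECAM1, the highest of them with DMSO, had 15.7 and 10.4 and did not pass the test. All 6 libraries came from the HCC827 line. The summed signals of the stromal and blood cell lists were higher in all 3 erlotinib libraries than in any DMSO library, but they rested on few genes. COL1A1 and CD68 carried nearly all of the fibroblast and of the leukocyte and macrophage sums, and CSF1R and PECAM1 had lower means with erlotinib. Whether these markers bear on the changes of MMP7, MMP15, MMP24 and TIMP2 was not tested.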

How the data were processed

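Read pairs were aligned by the authors with Bowtie2 2.3.4 (GRCh38), which does not split reads over introns, and reads with a unique position were assigned to genes with featureCounts 1.6.3, per the submitters' notes. The strand setting is not given in the sources used here. Each deposited signal value is a read number over the size factor of its library. This division is not stated, but 100% of the values were whole multiples of their library's step (within 0.001). The names of the erlotinib columns give the group but not the replicate. Counting unique positions leaves out sequence shared between genes or contigs.

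The main test was limma with a trend on log2(signal + 1), two-sided, for genes averaging a signal of 10 or more. Alternatives were edgeR, DESeq2 and limma-voom on recovered reads, other pseudocounts, filters and scalings, and each library left out. The steps were tested on simulated data in which only a small part of the genes changed, as many up as down. In the real data 70.7% of tested genes passed, so the simulation does not check the scaling or the calls in this setting. Exonic lengths came from GENCODE release 44, matched by symbol for 97.0% of tested genes.

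The genes, lists and tests were chosen with earlier results of these data known. All 10 genes were named, every tested gene of the other MMPs and TIMP4 and of the factors, and of each remaining list the 3 largest rises and falls past the threshold without overlap between groups. ELF3, FURIN, RECK, BSG, ADAM10, ADAM17 and single markers were named after their values were seen. No 2 replicates agreed within sampling noise (chi-square over its degrees of freedom, 4.05 to 22.9). Versions were limma 3.58.1, DESeq2 1.42.0 and edgeR 4.0.16 under R 4.3.3, with minimap2 2.31-r1302 and Python 3.11.15.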

Additional observations from a re-analysis of the deposited data

How the results depend on the processing

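Under all 15 alternatives 4 of the 10 genes were higher and 0 lower, and MMP7, MMP15, MMP24 and TIMP2 kept their direction and their side of the threshold in each. The log2 fold change of MMP7 ran from 3.88 (pseudocount 10) to 4.54 (without the highest DMSO library), that of MMP15 from 1.62 to 1.89, that of TIMP2 from 1.35 to 1.55 and that of MMP24 from 0.73 to 0.95. With libraries scaled to their total count, the median change over all tested genes went from 0.02 to 0.19 on the log2 scale. TIMP1, which did not pass the test under any alternative, reversed to 0.0856 under that scaling, to 0.024 without the first DMSO library and to 0.0205 without the third erlotinib library, and ran from -0.21 to 0.02 with each library left out. With at least 10 reads required in every library, 1 of the other MMPs was higher and TIMP4 was not tested, leaving 0 lower, because a library of MMP13 and of TIMP4 then fell under the minimum. The difference in the ratio of TIMP to MMP level, erlotinib less DMSO, was -0.00715 for the 10 genes and ran from -0.0139 to 0.00585 with each library left out, and over all 28 genes it was -0.0525. Of the 41 other genes reported as higher or lower, FOSB and CD68 lost their call under an alternative that could test them. The counts of the other lists and of all genes stayed within 1.5 times those reported. No paired analysis was possible because the erlotinib columns carry no replicate number of the labels. MMP9, MMP14, MMP1 and TIMP3 are limited by depth, with at most 34 reads in any library.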

Other observations

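MMP11 and MMP28 were among the genes listed at 0 in all 6 libraries. When the transcripts of the 28 MMP and TIMP genes were aligned to 261 alternate contigs of the genome with minimap2, MMP11 and MMP28 were the genes for which 90% or more of the transcript aligned with 97% identity or more (both 100%). A gene with such a copy can lose its reads when uniquely mapped reads are counted, so a value of 0 for MMP11 and MMP28 does not show that they are silent. None of the 10 genes described above had such a copy. MMP21 had a mean signal of 0.714 with DMSO and 6.81 with erlotinib, with overlap between the groups and a mean under the limit for testing. With no filter on low values it was tested and was higher (log2 fold change 2.03, limma adjusted p = 0.0262), though its highest erlotinib library (14.8) carried the mean, which was 2.79 without it, and 3 in place of 2 of the other MMPs were then higher.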
